A study of Mus musculus with 8 samples.

Results

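Gfap, Ngfr, Nes, Reln, Mapt, Map2 and Ncam1 are 7 genes better known from glia and neurons that serve as markers of hepatic stellate cells or of their states. Each was represented by the probe set that the platform annotation assigns to that symbol alone, and each had 1 such probe set, so the 7 genes are 7 of 19938 genes measured. Stellate cells are pericytes of the hepatic sinusoid that store vitamin A. They were sorted by the autofluorescence of their retinoids from male Balb/c mice and lysed straight after the sort, and a whole-transcript Affymetrix gene array was run on 8 RNA samples. The reverted group (4 arrays) came from mice that had been given 4 injections of carbon tetrachloride (CCl4), a liver toxin that causes fibrosis, at 0.5 µl per g body weight with 2 injections a week, followed by 45 days of rest. The quiescent group (4 arrays) came from normal mice. The labels state 18 weeks as the age of all mice in one place and 16 weeks for the reverted group in another. Whether an array stands for 1 mouse or for several is not stated, and the tests therefore see only the scatter among these 8 samples, part of which may be technical.

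Stellate cells of rodents have long been known to carry proteins of the nervous system. Gfap is the glial fibrillary acidic protein, an intermediate filament of astrocytes that marks quiescent stellate cells in rat and mouse liver, and Nes encodes nestin, an intermediate filament of neural progenitors. Ngfr encodes the low-affinity neurotrophin receptor, and Reln encodes reelin, a secreted glycoprotein that guides neuron positioning in the brain and is a stellate cell marker in mouse liver. Mapt (tau) and Map2 are related proteins that bind and stabilise microtubules in axons and in dendrites, and Ncam1 is the neural cell adhesion molecule, which in rat liver has been described on activated stellate cells. Loss of quiescence markers and gain of fibrogenic genes accompany the activation of stellate cells in injury, and the comparison asks what still sets stellate cells apart after such an episode has resolved.

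All levels are on the log2 scale, and log2 changes are reverted minus quiescent. The median log2 level lay between 7.66 and 7.74 on the 8 arrays. On the first principal component (35.3% of the variance) the 4 reverted arrays lay between 6.07 and 11.5, quiescent arrays 1 to 3 between -14.0 and -8.79, and quiescent array 4 apart from these at -0.21. Markers of the labelled cell type had bright probe set signals. The 15 measured genes of a list of 16 stellate cell markers averaged between 13.60 and 13.68 on reverted and between 13.68 and 13.71 on quiescent arrays. The mean was lower in reverted cells in 15 of 15. Lrat, which esterifies retinol for storage, averaged 14.04 ± 0.05 in reverted and 14.05 ± 0.08 in quiescent cells (SD, n = 4 each). Pdgfrb, the PDGF receptor of pericytes, averaged 13.65 ± 0.02 in reverted and 13.66 ± 0.06 in quiescent cells (SD, n = 4 each). Probe sets differ in brightness, so levels were not compared between genes as amounts of RNA, and the percentiles below are of probe set signal only. As a rough guide to background, 1194 olfactory and vomeronasal receptor genes had a median level of 5.62, and the 7 genes lay above 98.0% (Ncam1) to 100% of them.

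Of the 7 genes, Map2 and Gfap fell in reverted cells in limma with Benjamini-Hochberg adjustment over all genes, 0 rose and 5 did not pass. Over all 19938 genes, 37 fell (0.186%) and 105 rose (0.527%) at the same threshold of 0.05. Without the adjustment, 5 of the 7 genes had a p under 0.05 (4 lower, 1 higher), against 16.0% of all genes (7.40% lower, 8.56% higher). In 5 of the 7, the 4 reverted arrays lay wholly on 1 side of the 4 quiescent arrays (4 genes below, 1 above), against 8.73% of all genes (4.09% below, 4.64% above). In 6 of the 7 the mean was lower in reverted cells, against 53.6% of all genes (Reln had a higher mean once arrays were centred on the stellate marker mean), and the median log2 change of the 7 was -0.20 against -0.01 for all genes. The 7 genes were put together with earlier results of these data already known, among them the fall of Gfap, so these counts are a description.

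**Figure D1:**
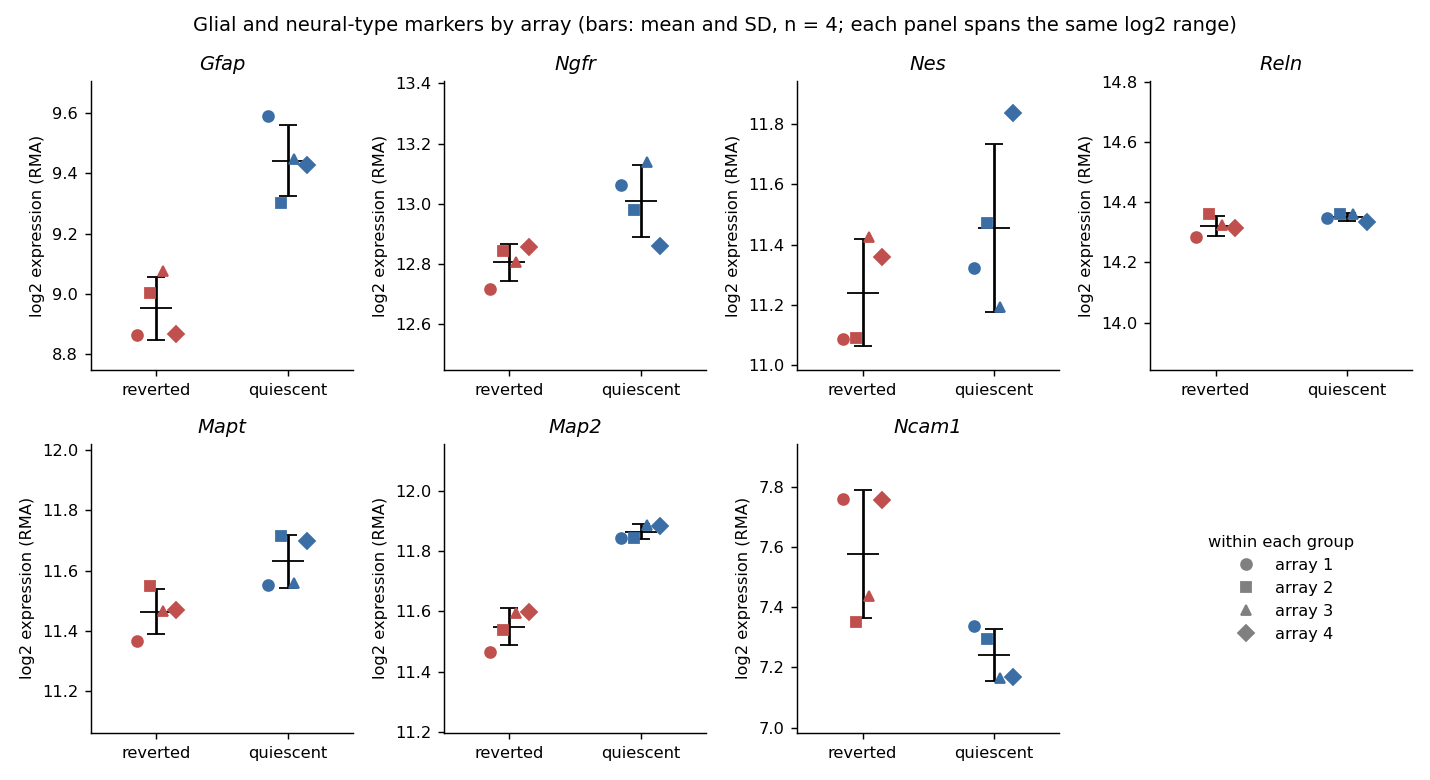
Log2 expression (RMA) of the 7 genes on each array, with reverted arrays in red and quiescent arrays in blue, symbols for arrays 1 to 4 and bars for mean and SD (n = 4); every panel spans the same log2 range. Gfap and Map2 show a clear gap between the groups, Ngfr, Mapt and Ncam1 a narrow one, and Nes and Reln overlap.

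Gfap (probe set 10391798, chr11:102887336-102897200 in GRCm38.p6) had log2 levels of 8.863, 9.002, 9.077 and 8.868 on reverted arrays 1 to 4, against 9.590, 9.303, 9.448 and 9.426 on quiescent arrays 1 to 4. The highest reverted array lay 0.23 below the lowest quiescent array, and no single array made the gap. The mean was 8.95 ± 0.11 in reverted and 9.44 ± 0.12 in quiescent cells (SD, n = 4 each), a log2 change of -0.49 (95% interval -0.65 to -0.33, adjusted p = 0.0182 in limma), or 0.712-fold. The change was -4.39 times the SD within groups. Without reverted array 4 the log2 change was -0.46 and the adjusted p 0.0703, and with the other arrays left out in turn the adjusted p stayed at or under 0.0494.

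The promoter window of Gfap is shown because this gene fell. It runs from 250 bases before to 50 bases after the annotated start (RefSeq, GRCm38.p6, chr11:102897151-102897450, minus strand), and capitals mark matches to TTCNNNGAA, the core letters bound by STAT factors, which drive Gfap in astrocytes, or to GGGCGG, the GC box. Both motifs were searched on both strands and do not overlap.
Gfap: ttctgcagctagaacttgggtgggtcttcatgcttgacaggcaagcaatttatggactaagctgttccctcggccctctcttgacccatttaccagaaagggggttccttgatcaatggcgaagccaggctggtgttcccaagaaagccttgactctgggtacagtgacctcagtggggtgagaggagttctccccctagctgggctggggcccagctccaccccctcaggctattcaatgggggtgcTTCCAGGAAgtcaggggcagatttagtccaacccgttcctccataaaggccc
The window held 1 match to TTCNNNGAA, which spans the annotated start, and 0 to GGGCGG. Its GC content of 55.7% was higher than that of 58.6% of the 32851 promoter windows in the table. TTCNNNGAA was found in 8.30% and GGGCGG in 35.7% of these windows. The match is a description of letters only, and a part of STAT factors in the fall of Gfap was not tested.

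Nes (probe set 10493114, chr3:87971093-87980451), the other intermediate filament gene of the 7, had log2 levels of 11.09, 11.09, 11.43 and 11.36 on reverted arrays, against 11.32, 11.47, 11.19 and 11.84 on quiescent arrays. The groups overlapped, with 2 of 4 reverted arrays below every quiescent array, and quiescent array 4 was the highest of all. The log2 change was -0.22 (95% interval -0.52 to 0.09, adjusted p = 0.452), so a fall of the size of that of Gfap lies within the interval. Its SD within groups was larger than that of 96.7% of all genes. Without quiescent array 4 the log2 change was -0.09.

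Map2 (probe set 10347036, chr1:66175202-66442583) had log2 levels of 11.47, 11.54, 11.60 and 11.60 on reverted arrays 1 to 4, against 11.84, 11.85, 11.89 and 11.88 on quiescent arrays 1 to 4. Every reverted array lay at least 0.25 below every quiescent array. The mean was 11.55 ± 0.06 in reverted and 11.86 ± 0.02 in quiescent cells (SD, n = 4 each), a log2 change of -0.32 (95% interval -0.41 to -0.22, adjusted p = 0.0116 in limma), or 0.803-fold. The change was smaller than that of Gfap on the log2 scale, at -6.72 times the SD within groups. Its log2 change stayed between -0.33 and -0.29 and its adjusted p between 0.0285 and 0.0407 when single arrays were omitted.

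The promoter window of Map2, the other gene that fell, is given for comparison with that of Gfap (RefSeq, GRCm38.p6, chr1:66175079-66175378, plus strand, capitals as above). The start site behind this window (66175329) lies 127 bases inside the gene's annotated span.
Map2: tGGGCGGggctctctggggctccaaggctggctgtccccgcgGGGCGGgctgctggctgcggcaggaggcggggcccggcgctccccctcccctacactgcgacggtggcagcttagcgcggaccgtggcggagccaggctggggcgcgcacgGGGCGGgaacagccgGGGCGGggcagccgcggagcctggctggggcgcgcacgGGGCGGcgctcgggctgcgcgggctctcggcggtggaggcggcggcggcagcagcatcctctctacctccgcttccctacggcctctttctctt
It held 5 matches to GGGCGG and 0 to TTCNNNGAA, with a GC content of 77.7%, higher than that of 97.9% of all windows. The table held windows for 5 of the 7 genes. GGGCGG occurred 6 times in that of Reln, 4 times in that of Ngfr and 2 times in that of Nes, and TTCNNNGAA in none of the 3. A match is a description of letters only.

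Mapt (probe set 10381776, chr11:104229409-104332090) had log2 levels of 11.37, 11.55, 11.47 and 11.47 on reverted arrays, against 11.55, 11.72, 11.56 and 11.70 on quiescent arrays. The groups touched, as reverted array 2 lay less than 0.01 below quiescent array 1. The log2 change of -0.17 (95% interval -0.29 to -0.04) did not pass (adjusted p = 0.208 in limma, unadjusted p = 0.0146).

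Reln (probe set 10528385, chr5:21884454-22344705) had nearly the same log2 level everywhere, at 14.28, 14.36, 14.32 and 14.31 on reverted arrays and 14.35, 14.36, 14.36 and 14.33 on quiescent arrays. The groups overlapped, and reverted array 2 was the highest of the 8. The log2 change was -0.03 (95% interval -0.11 to 0.05, adjusted p = 0.678), so the interval holds neither the fall of Gfap nor that of Map2. Its probe set signal was higher than that of 99.9% of all genes, within 0.5 of the brightest value on any array (14.8), where differences can be compressed.

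Ngfr (probe set 10390175, chr11:95568818-95587698) had log2 levels of 12.72, 12.84, 12.81 and 12.86 on reverted arrays, against 13.06, 12.98, 13.14 and 12.86 on quiescent arrays. The groups were separated by less than 0.01, between reverted array 4 and quiescent array 4, while quiescent arrays 1 to 3 lay further up. The log2 change of -0.20 (95% interval -0.34 to -0.06, or 0.788-fold to 0.957-fold) did not pass (adjusted p = 0.176 in limma). Without quiescent array 4 it was -0.25 with an adjusted p of 0.0656.

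Ncam1 (probe set 10593293, chr9:49502129-49799393) was the gene with a higher mean in reverted cells. Its log2 levels were 7.76, 7.35, 7.44 and 7.76 on reverted arrays, against 7.34, 7.29, 7.17 and 7.17 on quiescent arrays. Reverted arrays 1 and 4 stood clear of the quiescent arrays, and reverted array 2 lay 0.01 above the highest of them. The log2 change of 0.33 (95% interval 0.11 to 0.55) did not pass (adjusted p = 0.167 in limma). Its probe set signal was above that of 40.7% of all genes, in a dim range where changes may be understated.

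**Figure D2:**
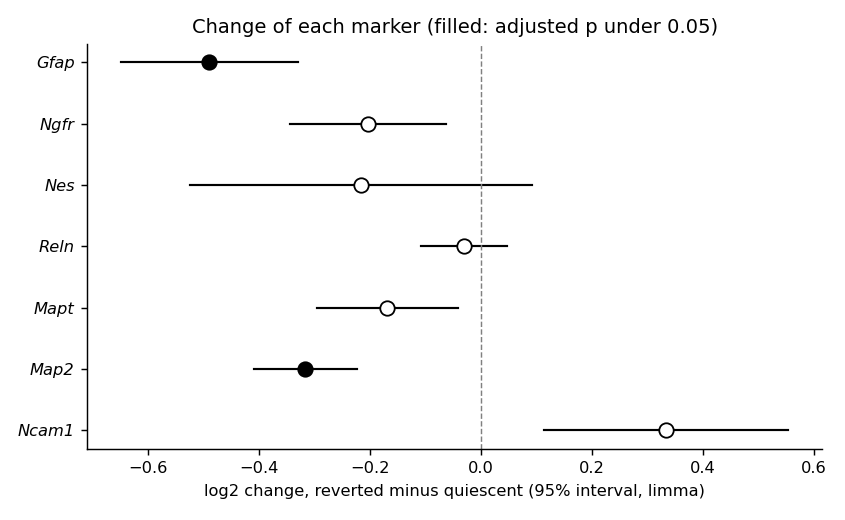
Log2 change of each gene, reverted minus quiescent, with its 95% interval from limma; filled points have an adjusted p under 0.05. Gfap (-0.49) and Map2 (-0.32) are filled, Ncam1 (0.33) lies on the other side of 0, and the interval of Reln is the narrowest.

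The difference of each gene from Gfap was also taken on every array and its mean compared between the groups. Gfap was known to fall, with groups that do not overlap, before it was set against the others, so these differences are given as a description with no test. An interval that leaves out 0 is therefore not read as a difference from Gfap. The change of Reln exceeded that of Gfap by 0.46 (95% interval 0.27 to 0.64), where the bright signal of Reln may understate its own change. The change of Ngfr exceeded it by 0.29 (0.08 to 0.49), that of Mapt by 0.32 (0.06 to 0.58) and that of Ncam1 by 0.82 (0.41 to 1.24). For Nes the difference was 0.27 (-0.19 to 0.73) and for Map2 it was 0.17 (-0.02 to 0.36). The differences from Gfap overlapped between the groups for Mapt (lowest reverted array 2.39, highest quiescent array 2.41), Nes (2.09, 2.41) and Map2 (2.52, 2.54). They did not overlap for Ngfr, Reln and Ncam1.

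The genes around these 7 were described with 6 lists of related genes, beside the 0.186% of all genes that fell and the 0.527% that rose. The lists were chosen with earlier results of these data known, so their counts are a description only. Of 21 intermediate filament genes, Gfap fell, 0 rose and 20 did not pass, with a median log2 change of -0.02. The filament proteins that stellate cells are best known for, Des (desmin, -0.02, adjusted p = 0.877) and Vim (vimentin, 0.05, adjusted p = 0.707), did not pass, and Bfsp1 (a lens filament, -0.19, adjusted p = 0.19), Nefh (the heavy neurofilament, -0.18, adjusted p = 0.29) and Plec (plectin, a linker of filaments, 0.18, adjusted p = 0.322) had the smallest p after Gfap. Of 27 microtubule-associated genes, Map2 fell, 0 rose and 26 did not pass, with a median of -0.01. Besides Mapt, the next were Dcx (doublecortin, which stabilises microtubules in migrating neurons, 0.29, adjusted p = 0.119), Dpysl2 (a tubulin-binding protein of growing axons, -0.13, adjusted p = 0.141) and Map6 (-0.16, adjusted p = 0.251). The reverted arrays of Dpysl2 all lay below, and those of Dcx all above, the quiescent arrays, against 4.09% of all genes below and 4.64% above. Dcx was dim, at 6.52 in reverted and 6.23 in quiescent cells, above 87.3% of the olfactory and vomeronasal receptor genes. Stmn1 (stathmin, which destabilises microtubules), picked out after its values were seen, had a mean change of 0.31 with overlapping groups (adjusted p = 0.62).

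In the reelin pathway 0 of 15 genes rose or fell in limma, with 2 higher and 0 lower at an unadjusted p under 0.05. Over all genes the latter shares were 8.56% higher and 7.40% lower. The receptors Vldlr (-0.06, adjusted p = 0.509) and Lrp8 (-0.07, adjusted p = 0.435) and the adaptor Dab1 (-0.08, adjusted p = 0.409) did not pass. Vldlr (6.30 to 6.46 on reverted, 6.42 to 6.47 on quiescent arrays) and Dab1 (6.38 to 6.49, 6.47 to 6.62) were dimmer than Ncam1. Changes may be understated in that range. Dab2, an endocytic adaptor related to Dab1, averaged 11.05 ± 0.19 in reverted and 10.55 ± 0.11 in quiescent cells (SD, n = 4 each), a log2 change of 0.50 with an adjusted p of 0.0534, and passed at 0.00707 without reverted array 2. With the mean of all its probe sets the log2 change of Dab2 was 0.20 (adjusted p = 0.156), and over 20 alternatives its adjusted p ran from 0.00707 to 0.338, under 0.05 in 7. Fyn, the kinase that phosphorylates Dab1, averaged 9.42 ± 0.08 in reverted and 8.99 ± 0.20 in quiescent cells (SD, n = 4 each), a log2 change of 0.44 (adjusted p = 0.0794), with an adjusted p of 0.0476 without quiescent array 3. Over the same alternatives the adjusted p of Fyn ran from 0.0277 to 0.371, under 0.05 in 4. In both genes the reverted arrays all lay above the quiescent arrays, as in 4.64% of all genes.

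Of 18 measured neurotrophin and receptor genes (22 listed), Sorcs3 fell, 0 rose and 17 did not pass. Sorcs3 belongs to the sortilin family of sorting receptors that bind neurotrophin precursors. Its log2 levels were 8.15, 7.70, 7.48 and 7.39 on reverted arrays, against 8.76, 8.40, 8.85 and 8.68 on quiescent arrays, a log2 change of -0.99 (95% interval -1.35 to -0.63, adjusted p = 0.0282). The call did not hold when reverted array 2, 3 or 4 or quiescent array 1 or 3 was left out (adjusted p up to 0.105). Sort1 (sortilin, the co-receptor of Ngfr for such precursors, 0.18, adjusted p = 0.239), Lingo1 (a co-receptor of Ngfr in neurons, -0.23, adjusted p = 0.0537) and Sorcs1 (-0.12, adjusted p = 0.191) did not pass. The reverted arrays of Lingo1 and of Sorcs1 all lay below the quiescent arrays, as in 4.09% of all genes. Sorcs1 averaged 5.61 in reverted and 5.73 in quiescent cells, near the median of the olfactory and vomeronasal receptor genes (5.62). Its signal could not be told from background at that level. Over 20 alternatives the adjusted p of Lingo1 ran from 0.0215 to 0.241, under 0.05 in 4.

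Of 18 genes of the NCAM family and its partners, Alcam rose, 0 fell and 17 did not pass. Alcam, an adhesion molecule of the immunoglobulin superfamily like Ncam1, had log2 levels of 12.55, 12.32, 12.41 and 12.48 on reverted arrays, against 12.13, 12.09, 12.14 and 12.12 on quiescent arrays. Its log2 change was 0.32 (95% interval 0.21 to 0.44, adjusted p = 0.0279), and the call did not hold when reverted array 3 or 4 or quiescent array 1, 2 or 3 was left out (adjusted p up to 0.108). Fgfr1, the FGF receptor with which Ncam1 interacts, averaged 10.97 ± 0.16 in reverted and 11.40 ± 0.12 in quiescent cells (SD, n = 4 each) and did not pass (-0.44, adjusted p = 0.0571), although it did without reverted array 1 (0.0494); over 20 alternatives its adjusted p ran from 0.0282 to 0.317, under 0.05 in 6. Nfasc (neurofascin) did not pass at -0.11 (adjusted p = 0.284).

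Of 21 measured glial markers (23 listed), Gfap and Clu fell, 0 rose and 19 did not pass, with a median log2 change of -0.06. Clu encodes clusterin, a secreted chaperone that astrocytes also make, and its log2 levels were 11.27, 11.22, 11.61 and 11.50 on reverted arrays, against 12.15, 11.80, 11.90 and 12.00 on quiescent arrays (log2 change -0.56, adjusted p = 0.046). It lost its call with each array left out except reverted array 3, at adjusted p of up to 0.113. The calls of Sorcs3, Alcam and Clu also ended with the replicate block (adjusted p = 0.0684, 0.0827 and 0.0948), with the mean of hepatocyte markers as a covariate (0.112, 0.113 and 0.13) and in the test with unequal variances and no pooling over genes (0.305, 0.334 and 0.301). Gfap (adjusted p = 0.0867, 0.104 and 0.241) and Map2 (0.0554, 0.0871 and 0.241) lost their calls in the same settings. With an immediate early gene covariate Sorcs3 (0.0723) and Alcam (0.0744) did not pass either. The gap junction gene Gja1 (0.35, adjusted p = 0.186) and the folate enzyme gene Aldh1l1 (0.32, adjusted p = 0.234) had higher means in reverted cells and did not pass.

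**Figure D3:**
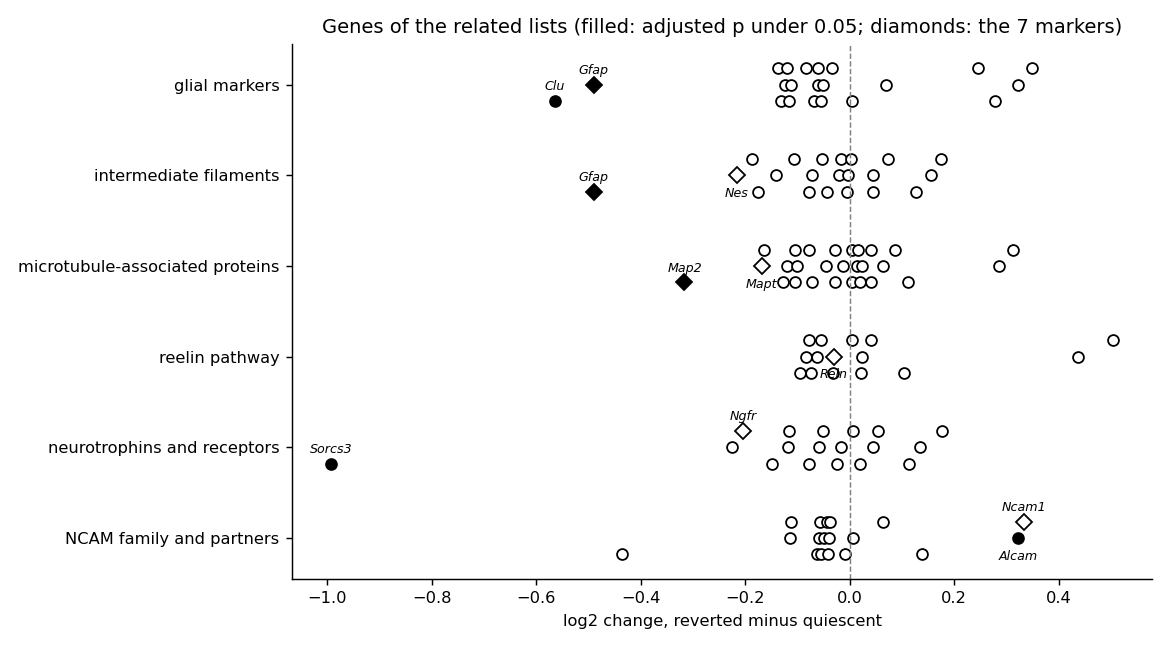
Log2 change, reverted minus quiescent, of each measured gene of the 6 lists; filled symbols have an adjusted p under 0.05 and diamonds are the 7 genes. Gfap and Map2 are the filled genes of the intermediate filament and microtubule lists, most of whose genes lie within 0.2 of 0, while Stmn1 (0.31) and Dcx (0.29) lie about as far from 0 as Map2 (-0.32).

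Markers of other cells were set beside these results. Over all genes, 7.40% were lower and 8.56% higher at an unadjusted p under 0.05 in limma, and 53.6% had a lower mean in reverted cells. Markers of Schwann cells, the glia of peripheral nerves, had mean log2 levels between 8.30 and 8.43 on reverted and between 8.34 and 8.37 on quiescent arrays, with 0 of 11 measured genes called in limma (1 at an unadjusted p under 0.05). This list holds Egr2 (13.30 in reverted, 13.14 in quiescent cells), also counted as an immediate early gene. Neuron markers lay between 6.75 and 6.85 on reverted and between 6.81 and 6.86 on quiescent arrays, with 0 of 14 called in limma (0 at an unadjusted p under 0.05). Elavl4, Nefl, Nefm and Stmn2 lay above only 56.4% to 72.9% of the olfactory and vomeronasal receptor genes, and Syp above 99.9%. For markers that dim, the lack of a call says little. The mean of the stellate markers lay between 13.60 and 13.68 on reverted arrays and between 13.68 and 13.71 on quiescent arrays, lower in 15 of 15 genes with 0 called in limma (3 at an unadjusted p under 0.05). Relative to that mean, Gfap changed by -0.42 and Map2 by -0.25 on the log2 scale, with 4 of 4 reverted arrays below every quiescent array in both, and their adjusted p were 0.0208 and 0.0338. On the same scale Ngfr and Mapt each had 1 of 4 reverted arrays below every quiescent array. In sorted bulk cells, fewer cells of a type and less RNA per cell cannot be told apart.

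Hepatocyte markers had mean log2 levels between 8.53 and 9.01 on reverted and between 7.92 and 8.83 on quiescent arrays, with a higher mean in 16 of 17 measured genes and Hp, a plasma protein gene, called (8 higher and 0 lower at an unadjusted p under 0.05). Over all genes, 0.527% were called higher, and 8.56% were higher and 7.40% lower at an unadjusted p under 0.05. With their mean as a covariate, the log2 change of Gfap was -0.39 (adjusted p = 0.104) and that of Map2 -0.30 (adjusted p = 0.0871), in a fit that called 33 genes higher and 4 lower. Sinusoidal endothelial markers lay between 8.78 and 9.42 on reverted and between 8.56 and 9.12 on quiescent arrays, with 0 of 14 called in limma (2 at an unadjusted p under 0.05). The list of activated stellate cell markers lay between 10.52 and 10.72 on reverted and between 10.15 and 10.50 on quiescent arrays, with Lox, Tnc and Thbs1 called higher among 15 measured (8 higher and 1 lower at an unadjusted p under 0.05). Of 17 markers of mesothelium and portal fibroblasts, Wt1 and Dpt were called higher (3 higher and 4 lower at an unadjusted p under 0.05), and the list mean lay between 7.72 and 7.91 on reverted and between 7.64 and 7.69 on quiescent arrays. Macrophage markers (6.79 to 6.89 on reverted, 6.76 to 6.87 on quiescent arrays) and cholangiocyte markers (7.001 to 7.07 on reverted, 6.99 to 7.11 on quiescent arrays) overlapped, with 0 of 14 and 0 of 8 called in limma and 1 in each list at an unadjusted p under 0.05. The brightest probe sets were those of Egr2 and Pmp22 among Schwann, Syp and Elavl3 among neuron, Alb and Apoa1 among hepatocyte, Eng and Clec4g among endothelial, Postn and Ccn2 among activated stellate, Eln and Dpt among mesothelial and portal fibroblast, Cd68 and C1qb among macrophage and Muc1 and Sox9 among cholangiocyte markers. The part of these cells in the changes of the 7 genes was not tested beyond the covariate.

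**Figure D4:**
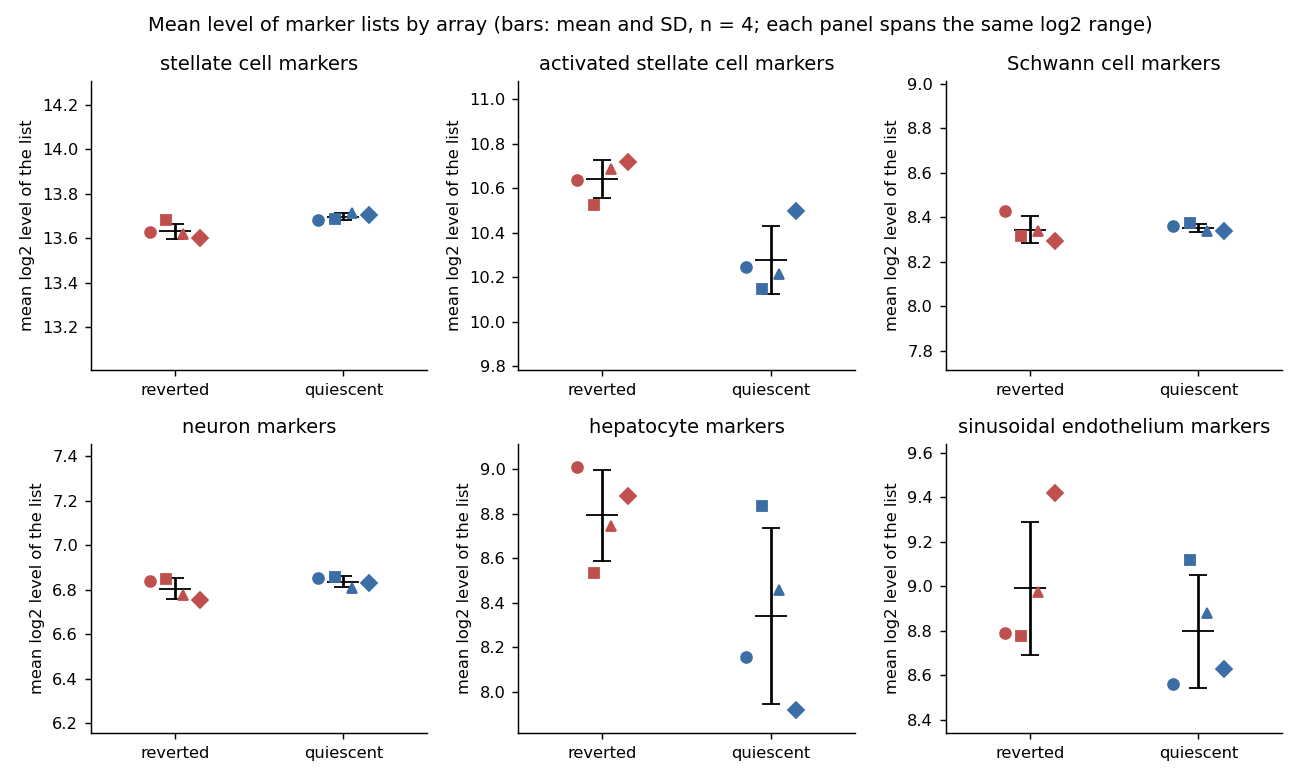
Mean log2 level of 6 marker lists on each array, with reverted arrays in red and quiescent arrays in blue, symbols for arrays 1 to 4 and bars for mean and SD (n = 4); every panel spans the same log2 range. Stellate, Schwann and neuron markers vary little between arrays, while hepatocyte and endothelial markers spread widely and overlap between the groups. Activated stellate markers are higher on all reverted arrays (10.52 to 10.72) than on the quiescent arrays (10.15 to 10.50). Stellate markers lie just lower on all reverted arrays.

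The genes with profiles most like those of Gfap and Map2 over the 8 arrays were found by the root mean square distance of log2 values after each gene was centred on its own mean. Nearest to Gfap were Ndn (distance 0.10, log2 change -0.48), Abca8a (0.10, -0.61), Dhh (0.11, -0.39), Flrt2 (0.11, -0.48) and Lce1i (0.12, -0.33), where the spread of Gfap itself over the arrays was 0.26. Nearest to Map2 were Abi3bp (0.04, -0.28), Retreg1 (0.04, -0.32), Itga2b (0.05, -0.28), Gabra3 (0.06, -0.24) and Plxnb1 (0.06, -0.22), where the spread of Map2 was 0.16. The genes nearest to Ngfr were Gal3st4, Calm4, Pcp4, Cyfip2 and Snu13, at 0.04 to 0.05 against a spread of 0.13. Nearest to Mapt were Sat1, Hmcn1, Csf2, Tln2 and Fbxl17, at 0.03 to 0.05 against a spread of 0.11. Ncam1 was nearest to Dctd (0.08), Rnf125, Dcx, Cyp2f2 and Alcam (0.10), against a spread of 0.22. These genes were found by their likeness over both groups, so their changes are a description. Some were dim, among them Lce1i (5.91 in reverted, 6.24 in quiescent cells), Gal3st4 (5.59, 5.81) and Csf2 (5.90, 6.03). The median of the olfactory and vomeronasal receptor genes was 5.62, so the likeness of such genes may be one of background signal.

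**Figure D5:**
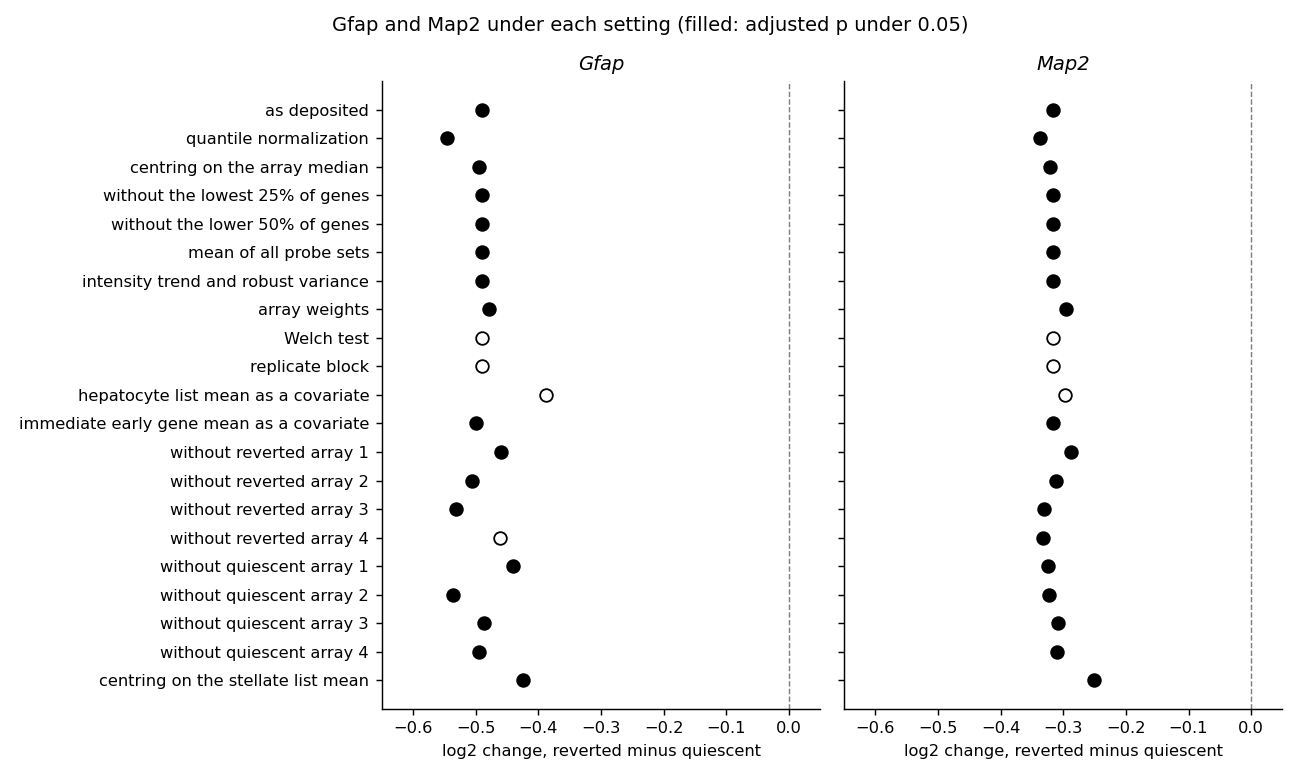
Log2 change of Gfap and Map2, reverted minus quiescent, as deposited and under each of 20 other settings; filled points have an adjusted p under 0.05. All points lie below 0, and open points are those of the test with unequal variances and no pooling over genes, the replicate block and the hepatocyte covariate, and for Gfap also that without reverted array 4.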

How the data were processed

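RMA (background correction, normalization across arrays and probe set summary) produced the deposited log2 values, per the submitters' processing notes. Neither its settings nor a genome build is given in the sources used here. The table holds 35556 probe sets and 0 missing values. Symbols came from the platform annotation: 21789 probe sets carry 1 symbol, 1621 several and 12146 are unlisted, and for genes with several probe sets that with the highest mean was kept, which left 19938 genes. No filter was applied, and apart from the receptor genes used as a rough guide, background levels were not used here. Precision is limited by there being 4 arrays a group.

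The main test was limma 3.58.1 in R 4.3.3 (lmFit, then eBayes), 2-sided, with Benjamini-Hochberg adjustment over the 19938 genes and a threshold of 0.05. Intervals are 95% from the same fit. The fit was tested on simulated data. Tables and plots used Python 3.11.15, pandas 2.3.3 and matplotlib 3.10.9. Coordinates and promoter windows are those of RefSeq, GRCm38.p6.

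The members, lists and tests were chosen with earlier results of these data known. In each pathway list the text names the genes called and the 3 genes outside the 7 with the smallest p, which can be called genes; of other cell types it names the 2 brightest markers of each list; Des, Lrat and Pdgfrb were set as stellate markers, and Vim, Vldlr, Lrp8, Sort1 and Stmn1 were named after their values were seen. The 5 nearest genes are given for each of the 7 genes that was called or whose groups did not overlap. A planned limma fit of differences from Gfap gave every gene the same standard error (0.116) and an adjusted p under 0.05 in 5 of 6 comparisons; an exact permutation test put 3 of the 6 at its smallest p (0.0286). Gfap was chosen with its fall known, so neither supports a statement, and the intervals of these differences use 6 degrees of freedom from each gene's own spread. Alternatives changed the normalization, filter, probe choice, variance model, test, block, covariate and arrays; centring on the stellate list mean was added after seeing the data.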

Additional observations from a re-analysis of the deposited data

Results flagged for a closer look

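By Dixon's criterion chance marks about 1 in 20 groups of 4 arrays as holding a stray value, and 2 of the 64 groups examined did so. Dab2 on reverted array 2 had a log2 level of 10.76, against 11.13 to 11.16 on the other reverted arrays. Bfsp1 on quiescent array 4 had a log2 level of 7.22, against 7.40 to 7.41 on the other quiescent arrays. The 7 glial and neural-type genes had no such value in either group.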

How the results depend on the processing

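The 7 genes under 20 alternatives gave 139 values (Ncam1 could not be tested without the lower 50% of genes): 131 kept their direction and side of the threshold, 7 lost a call and 1 changed sign. Only Gfap and Map2 had a call to lose, and lost it in 4 and 3 of 20 alternatives. The 5 other genes count as kept where they stayed uncalled with the same sign. Averaging probe sets could not alter levels of genes with 1 probe set each, and the filters left log2 changes as they were. The adjusted p ran from 0.014 to 0.241 for Gfap and from 0.0047 to 0.241 for Map2. With single arrays left out, the log2 change of Gfap ran from -0.54 to -0.44, passing in all but the fit without reverted array 4, that of Map2 passed in all 8 fits, and 1 to 2 of the 7 genes were called lower. Both lost their calls in the Welch test (adjusted p = 0.241 for each, Gfap -0.49, Map2 -0.32), which called 0 of the 7 lower and 0 genes higher or lower over all, with 1227 higher and 1142 lower at an unadjusted p under 0.05. With the replicate block, Gfap (-0.49, limma adjusted p = 0.0867) and Map2 (-0.32, 0.0554) did not pass, leaving 0 of the 7 called, with 48 genes higher and 15 lower over all. Correlations of deviations between same-numbered arrays were -0.15, -0.03, -0.02 and 0.08, and between differently numbered arrays they ran from -0.24 to 0.33. Whether arrays were handled in pairs cannot be told from so few values. The hepatocyte covariate (Gfap -0.39, Map2 -0.30) also left 0 of the 7 called in limma, with 33 genes higher and 4 lower. The cause of these losses was not tested.

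Over all genes, limma called 68 higher and 20 lower with the immediate early gene covariate, 218 higher and 88 lower with array weights, and 128 higher and 91 lower after quantile normalization, against 105 higher and 37 lower in the values as deposited. With single arrays left out it called 41 to 175 higher and 13 to 72 lower; the highest counts were those without quiescent array 4. Centring on the stellate list mean, added after seeing the data, gave 439 higher and 31 lower. Reln (0.035), Lrat (0.065), Des (0.049), Pdgfrb (0.064) and Vldlr (0.0035) then had the opposite sign and did not pass. Lrat also turned with quantile normalization (0.018), array weights (0.0082) and the hepatocyte covariate (0.054), Des with the hepatocyte covariate (0.047) and Pdgfrb with the immediate early gene covariate (0.019). With single arrays left out, Lrat ran from -0.025 to 0.038, Des from -0.033 to 0.018 and Pdgfrb from -0.028 to 0.016. Beyond the rough guide from receptor genes, no signal over background was used, so what can be said of dim genes such as Ncam1 is limited.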
